A study of Mus musculus with 12 samples.

Results

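The genes described here are the nuclear-encoded subunits of oxidative phosphorylation, the respiratory chain of mitochondria and its ATP synthase. They were chosen by name alone: symbols beginning with Nduf followed by a, b, c, s or v and a number, the 4 Sdh genes, symbols beginning with Uqcr, Cox4 to Cox8 with a following letter, and symbols beginning with Atp5. The rule found 84 of the 52635 genes in the deposited table, after 6 names marked as pseudogenes were left out. By complex these were 37 genes of complex I, 4 of complex II, 8 of complex III, 18 of complex IV and 17 of complex V. Some assignments by name go against function as it is known: Ndufa4 was named as a complex I gene but its product was later placed in complex IV, and Atp5s and Atp5sl encode factors linked to assembly rather than subunits.

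RNA was sequenced from 12 libraries of mouse naive CD4 T cells of the C57BL/6 strain, 2 per group, after 24 h of culture. The groups were RARα TG cells with 10 nM retinoic acid (RA) and without it, cells labelled RARα KO with and without RA, and wild-type (WT) cells with and without RA. All 6 groups had been activated through CD3 and CD28 in charcoal-stripped serum, together with IL-6, IL-1β, IL-21, IL-23, TNFα, TGFβ1 and antibodies to IFNγ and IL-4. RA is the active form of vitamin A and acts through nuclear receptors, one of them RARα, which the gene Rara encodes. Neither the KO allele nor the TG construct, its promoter or its expressing cells is given in the sources used here. The labels do not say whether the 2 libraries of a group stem from different mice. Whether the spread between libraries of the KO and WT groups is that between mice or technical is therefore not known. That spread is part of what the p-values measure. The pseudogene Gm6969 in KO and the class II markers in WT differed between the replicates at both doses, with values given below.

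Rara stood at 126 and 119 FPKM in TG libraries with RA and at 72.8 and 63.3 FPKM in TG libraries without it, against 12.3 to 18.9 FPKM in the 4 WT libraries. The 4 libraries labelled KO held 16.8 to 19.5 FPKM of Rara and so were not lower than WT, which is why they are called by their label throughout. FPKM are reads scaled by exon length and by sequencing depth, and that depth read from the step of 1 read was 16289935 to 25534512 reads per library. Xist and the Y-linked Ddx3y split the libraries by sex: all WT libraries and replicate 1 of TG carried Ddx3y, all libraries labelled KO and replicate 2 of TG carried Xist, so the 2 libraries of each TG group differed in sex, and sex and genotype cannot be told apart between KO and WT. The 8 T cell markers summed to 1004 to 1484 FPKM in every library. The 10 B cell markers summed to 109 and 107 FPKM in TG with RA and to 31.7 and 34.4 FPKM in TG without RA, with Ighm at 101 and 95.9 FPKM in TG with RA and at 27.5 and 27.6 FPKM in TG without RA. In WT they summed to 56.1 and 128 FPKM with RA and to 29.7 and 101 FPKM without, so that replicate 2 held more in both. The 8 markers of dendritic cells and class II were at 26.3 and 166 FPKM in WT with RA and at 24.1 and 157 FPKM in WT without RA, again high in replicate 2, beside 35.4 and 46.5 FPKM in TG with RA and 28.0 and 44.7 FPKM in TG without RA. None of the 10 B cell markers was at 0 in all libraries. With RA, 1 of the 9 tested, Ighm, was called in TG and 0 in WT, against 3 in TG and 2 in WT with libraries paired by replicate number within a genotype. Ighm made up most of the sum in TG. Without pairing, Cd79b (1.48 ± 0.61), Cd79a (0.33 ± 0.65) and Fcmr (-0.37 ± 0.35; log2, SE) were not called in TG. The part of these cells in the results was not tested.

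Oxidative phosphorylation passes electrons from NADH through complex I, or from succinate through complex II, to ubiquinone, then through complex III and cytochrome c to complex IV, where oxygen is reduced. Complexes I, III and IV pump protons across the inner mitochondrial membrane, and complex V uses their return to make ATP. Complexes I, III, IV and V also hold subunits encoded in mitochondrial DNA, whereas all 4 subunits of complex II are nuclear. Naive T cells that are activated enlarge their mitochondria and raise respiration as well as glycolysis.

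In the level of their RNA, most of the genes were abundant and differed little between libraries. Of the 84 genes, 77 reached 1 FPKM in at least 2 libraries and were tested. Of the other 7, Ndufa4l2, Cox7b2, Cox8b and Cox8c were listed at 0 in all 12 libraries, while Atp5g1 reached at most 0.643 FPKM, Cox6a2 0.298 FPKM and Cox4i2 0.214 FPKM. Most of these 7 are isoforms known from muscle, lung, testis or hypoxic cells, and their counterparts Cox4i1, Cox6a1 and Cox8a had mean levels of 167, 155 and 176 FPKM over the 12 libraries. The testis isoform Cox6b2 was at 1.22 to 3.04 FPKM and the muscle isoform Cox7a1 at 0.972 to 2.56 FPKM. Between the lowest and the highest library, the median tested gene of the set moved 1.31-fold (n = 77) on the scale of FPKM + 1, beside 1.40-fold over all 11922 genes tested. Over genes with a mean of at least 10 FPKM the medians were 1.27-fold for the set (n = 68) and 1.32-fold for all (n = 5576).

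The catalytic core of ATP synthase held the highest levels, with means of 441 FPKM for Atp5a1 (subunit α) and 429 FPKM for Atp5b (subunit β). Complex IV followed with Cox6b1, a subunit on the outer face of the enzyme, at 203 FPKM and Cox8a, a small core-binding subunit, at 176 FPKM. In complex III the highest were Uqcr10, a small subunit beside the iron-sulfur protein, at 149 FPKM and the core protein gene Uqcrc2 at 120 FPKM. Complex II was led by the membrane anchor gene Sdhd at 135 FPKM and the flavoprotein gene Sdha at 107 FPKM, above the iron-sulfur gene Sdhb at 61.2 FPKM and the second anchor gene Sdhc at 31.5 FPKM. In complex I the highest were Ndufa6, an accessory subunit of the matrix arm, at 108 FPKM and Ndufc2, of the membrane arm, at 105 FPKM. Ndufs1, which carries iron-sulfur clusters in the matrix arm, was at 20.9 FPKM.

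Levels of single genes depend on how the table was made. FPKM were scaled by the union of all annotated exons. For Ndufs1 this union was 12.4 times and for Atp5l 11.8 times the median length of the gene's coding transcripts. These genes may thus be understated relative to the others. That median takes in every annotated coding transcript, short ones too, and was 651 bases for Ndufs1 and 533 bases for Uqcrc1. The order within complexes depends on the length used too. Scaled by the median coding length, Sdha was at 245 and Sdhd at 135, Cox4i1 at 347 and Cox6b1 at 296, and Uqcrc1 at 408 and Uqcr10 at 200. Short transcripts that lower a median raise the value so scaled, as they may for Uqcrc1, so this order is uncertain. Atp5b and Atp5a1 stayed the highest, at 950 and 537. Reads of 100 bases that match another gene exactly cannot be placed: 61.3% of the possible 100-base windows of Atp5l, 34.7% of Atp5g2, 33.4% of Ndufb4 and 12.7% of Ndufs5 occur elsewhere, mostly in pseudogenes. Atp5g2 stood at 0.828 to 1.64 FPKM and Atp5l at 0.709 to 1.45 FPKM. The levels of such genes are uncertain. Among the 3 genes for the same c-ring subunit of ATP synthase, Atp5g3 had a mean of 121 FPKM, Atp5g2 1.16 FPKM and Atp5g1 0.463 FPKM.

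**Figure D1:**
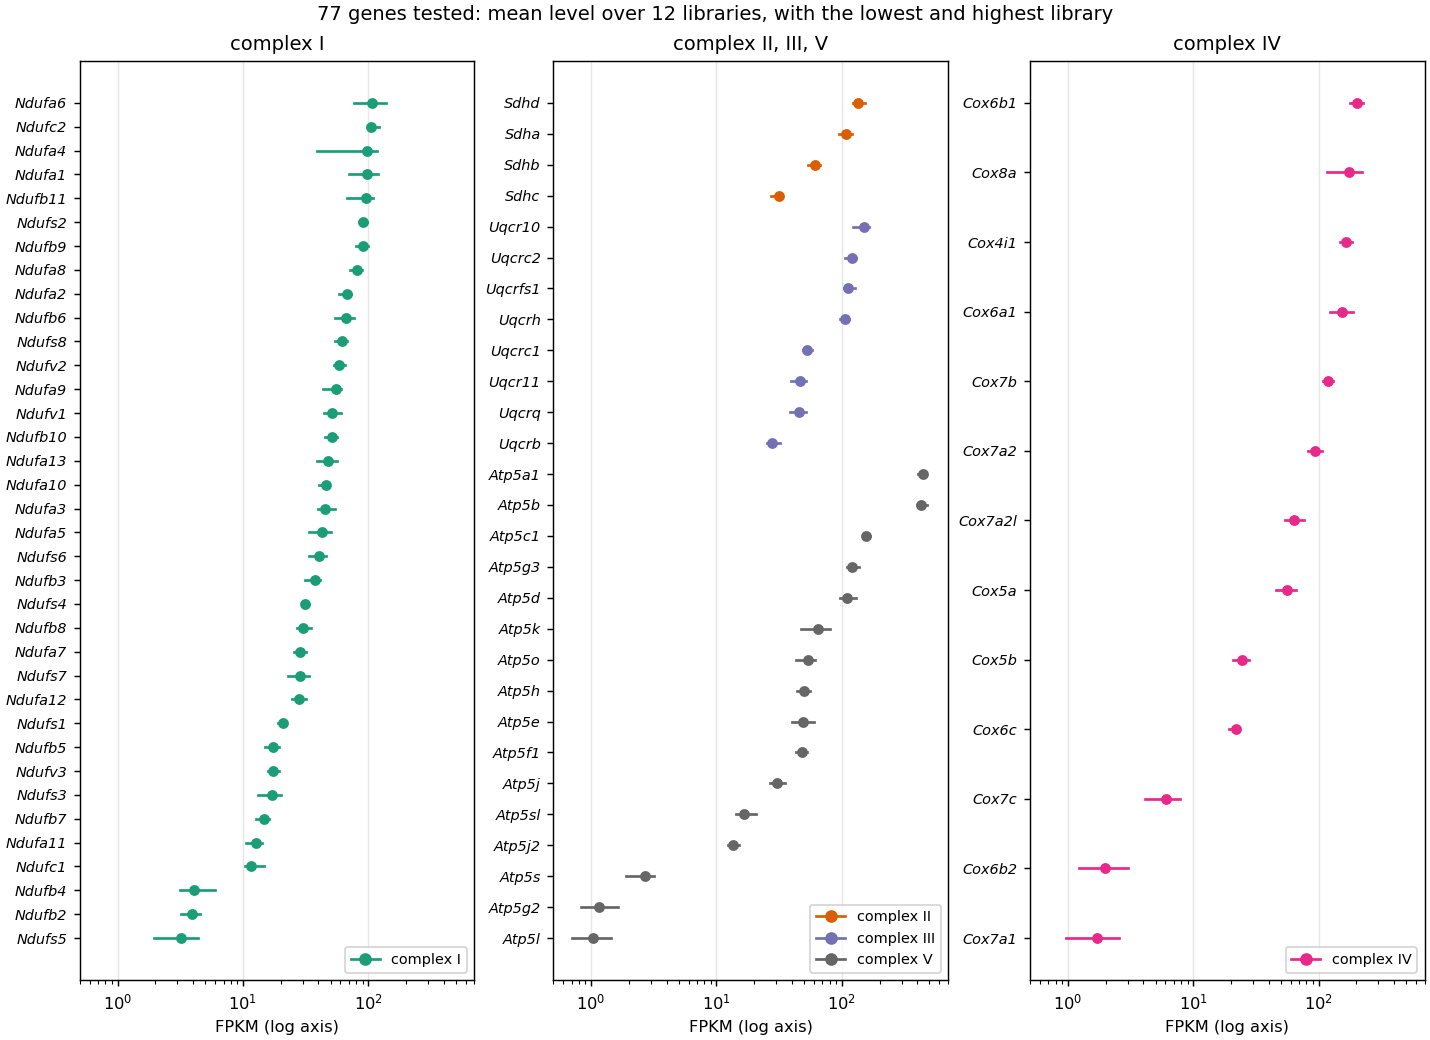
Mean FPKM over the 12 libraries (points, log axis) of the 77 genes tested, with lines from the lowest to the highest library, grouped by complex. Atp5a1 and Atp5b lie farthest to the right at 441 and 429 FPKM, and Ndufa4 has the longest line among the abundant complex I genes, down to 38.9 FPKM.

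Summed over the members, complex I came to 1564 and 1520 FPKM in TG libraries with RA, against 1655 and 1821 FPKM in TG libraries without RA. In the libraries labelled KO the sum was 1766 and 1787 FPKM with RA, against 1776 and 1817 FPKM without, and in WT libraries 1647 and 1759 FPKM with RA, against 1746 and 1615 FPKM without. The 2 TG libraries with RA were thus the lowest of the 12 for the complex I sum, which counts Ndufa4 by its name. Complex V behaved alike, with 1517 and 1468 FPKM in TG with RA and 1596 and 1705 FPKM in TG without RA, and the TG libraries with RA were again the lowest 2. For complexes II, III and IV the sums of TG with RA overlapped those of other groups. All members together made up 1.86 to 2.08% of the FPKM total of a library, and averaged 5042 ± 105 FPKM in TG with RA and 5519 ± 315 FPKM in TG without RA (SD, n = 2 each). The corresponding sums were 5468 ± 189 and 5578 ± 108 FPKM in libraries labelled KO with and without RA, and 5280 ± 67.9 and 5380 ± 236 FPKM in WT libraries with and without RA (SD, n = 2 each). Without replicate 2 of TG without RA, the sum of that group was 5296 FPKM, and without its replicate 1 it was 5742 FPKM. Without Ndufa4 the sums over all members were 5075 and 4930 FPKM in TG with RA and 5189 and 5624 FPKM in TG without RA. In complex I, replicate 1 of TG with RA (1564 FPKM) held 41.9 FPKM of Ndufa4. Replicate 2 of WT without RA (1615 FPKM) held 107 FPKM of it, so the order of these libraries rests on Ndufa4. Fewer cells of a type and less RNA per cell cannot be told apart in bulk samples.

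**Figure D2:**
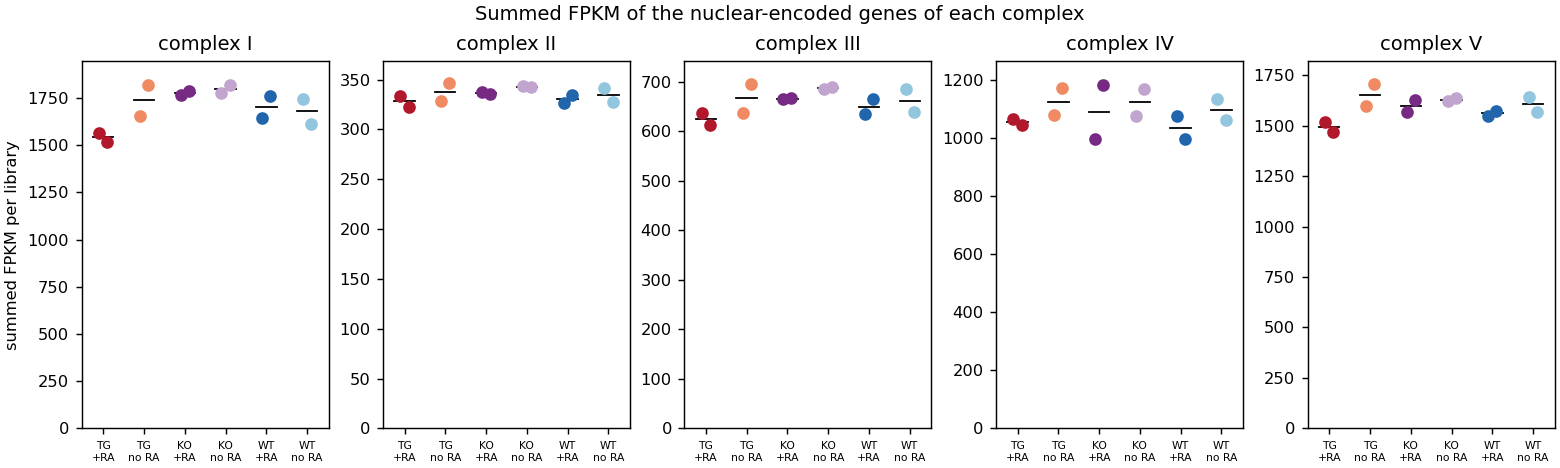
Summed FPKM of the members of each complex in each library (points) with the group mean (lines), axes starting at 0. In complex I, counted with Ndufa4, the TG libraries with RA, at 1564 and 1520 FPKM, lie under all others, as they do in complex V at 1517 and 1468 FPKM. In the other complexes the groups overlap.

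In TG cells, RA changed 29 of the 77 genes tested, of which 22 fell and 7 rose (limma on log2(FPKM + 1), adjusted p under 0.05 over all 11922 genes). Of all genes tested, 19.4% fell and 19.7% rose in the same comparison, so that falls took 28.6% of the set and rises 9.09%. The largest fall was in Ndufa4 and the largest rise in Ndufa6. The median difference was -0.13 (log2) over the set and -0.02 over all genes tested, and 57 of the 77 differences were below 0. Without replicate 2 of TG without RA, 8 fell (10.4%) and 5 rose, beside falls in 12.2% of all genes, and the median of the set was -0.07. Without replicate 1 of TG without RA, 27 fell (35.1%) and 4 rose, beside 17.2% of all genes, with a median of -0.20. Without replicate 2 of TG with RA, 9 fell (11.7%) and 3 rose, and without its replicate 1, 15 fell (19.5%) and 3 rose, beside 13.1% of all genes in both. The larger share of falls in the set was thus not seen without either replicate 2. In a fit of only the 4 TG libraries, 13 members fell (16.9%) and 4 rose (5.19%), beside 15.0% and 16.9% of all genes. The share of falls was thus close to that of all genes there too. With the libraries set to equal medians, 29 members fell and 4 rose, and over all genes the split of 2350 rises to 2312 falls became 1969 to 3054.

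Of the 29 calls in TG, 10 passed the threshold under every alternative run, which included leaving out each of the 4 TG libraries in turn. These were the falls of Ndufa4, Ndufb11, Ndufs5, Ndufa9, Uqcr11, Atp5g3, Atp5o and Atp5k and the rises of Sdha and Ndufa6. Calls numbered 13 without replicate 2 of TG without RA, 12 without replicate 2 of TG with RA, 18 without replicate 1 of TG with RA and 31 without replicate 1 of TG without RA. With libraries paired by replicate number within a genotype there were 30, 24 falls and 6 rises. Ndufb7, Ndufa8 and Ndufs8 then missed the threshold (adjusted p = 0.053, 0.061 and 0.056), and the falls of Atp5d, Cox7c and Cox6b2 and the rise of Ndufa7 passed it (adjusted p = 0.035, 0.011, 0.035 and 0.042). Replicate 2 of TG without RA was the highest of the 12 libraries for the summed members, at 5742 FPKM.

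**Figure D3:**
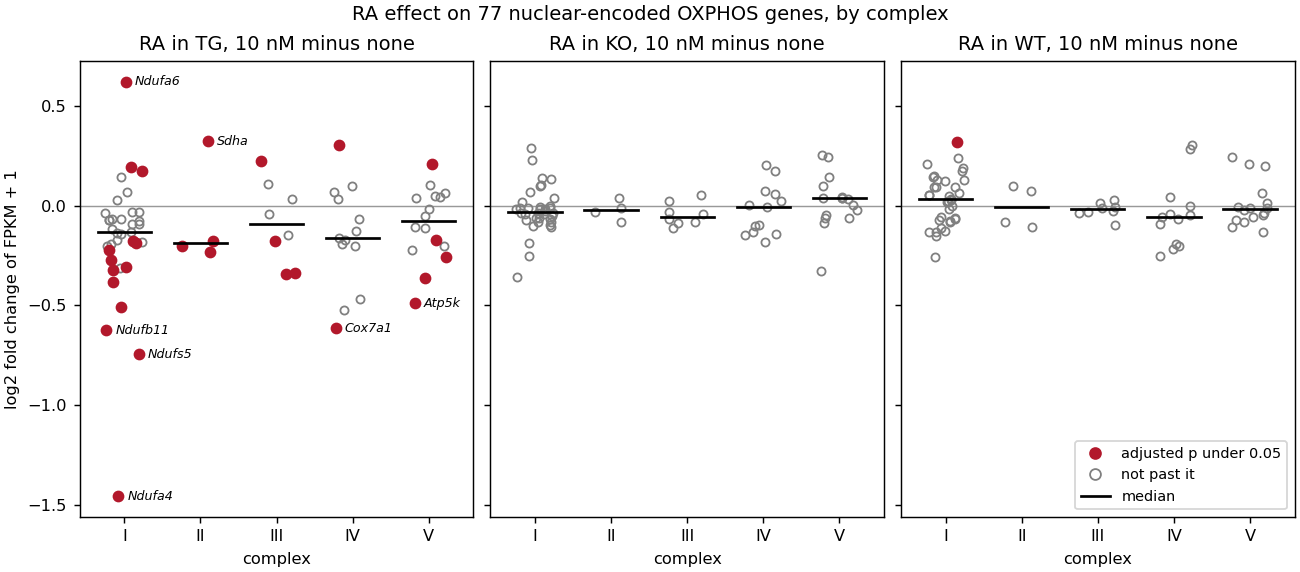
Log2 fold change of FPKM + 1 with RA against no RA for each of the 77 genes, by complex, in TG cells, cells labelled KO and WT cells. Filled points passed an adjusted p of 0.05 and lines are medians: 29 points are filled in TG, 0 in KO and 1 in WT, and Ndufa4 in TG lies lowest at -1.46.

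Complex I held 14 of the calls in TG, 11 falls (30.6%) and 3 rises (8.33%) among 36 genes tested. Of all genes tested, 19.4% fell and 19.7% rose in this comparison. Ndufa4, a small membrane subunit named for complex I and found in complex IV, stood at 41.9 and 38.9 FPKM in TG libraries with RA, against 107 and 118 FPKM in TG libraries without RA. In libraries labelled KO it was at 107 and 105 FPKM with RA and at 111 and 112 FPKM without. WT libraries held 99.1 and 105 FPKM with RA and 116 and 107 FPKM without. Both TG libraries with RA were thus lower than all 10 others, which lay between 99.1 and 118 FPKM. The RA effect in TG was -1.46 ± 0.06 (log2, SE; limma adjusted p = 1.1e-06). It was -0.07 ± 0.06 in cells labelled KO (adjusted p = 0.75) and -0.13 ± 0.06 in WT cells (adjusted p = 0.26). The difference between the RA effects of TG and WT was -1.33 ± 0.09 (limma adjusted p = 0.00012), and over its 16 alternatives the adjusted p ran between 6.3e-05 and 0.0021. Ndufa4 lies on the minus strand of chromosome 6 at 11900292 to 11907497 (GRCm38), and among the other genes plotted per library Ndufb11 lies on chromosome X at 20615326 to 20617619, Ndufs5 on chromosome 4 at 123712710 to 123718202, Ndufa6 on chromosome 15 at 82350140 to 82354322 and Sdha on chromosome 13 at 74322254 to 74350280.

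AA467197, a gene outside the name rule that was picked after its values were seen, moved against Ndufa4. It is the mouse counterpart of human C15orf48, whose product is a paralogue of NDUFA4 known in human cells to take its place in complex IV, and its transcript holds the microRNA Mir147. AA467197 was at 417 and 386 FPKM in TG libraries with RA, against 0.842 and 1.20 FPKM in TG libraries without RA. The libraries labelled KO held 7.37 and 9.76 FPKM with RA and 1.63 and 1.93 FPKM without. In WT libraries it was at 20.2 and 22.3 FPKM with RA and at 1.22 and 2.02 FPKM without. It was higher with RA than without in each genotype with no overlap, by 7.64 ± 0.17 in TG, 1.77 ± 0.17 in cells labelled KO and 3.11 ± 0.17 in WT (log2, SE; limma adjusted p = 7.4e-08, 0.0071 and 0.00011). The RA effect in TG exceeded that in WT by 4.54 ± 0.24 (adjusted p = 3.7e-05), while that in KO was lower than in WT by a difference of -1.33 ± 0.24 that did not pass (adjusted p = 0.24).

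**Figure D4:**
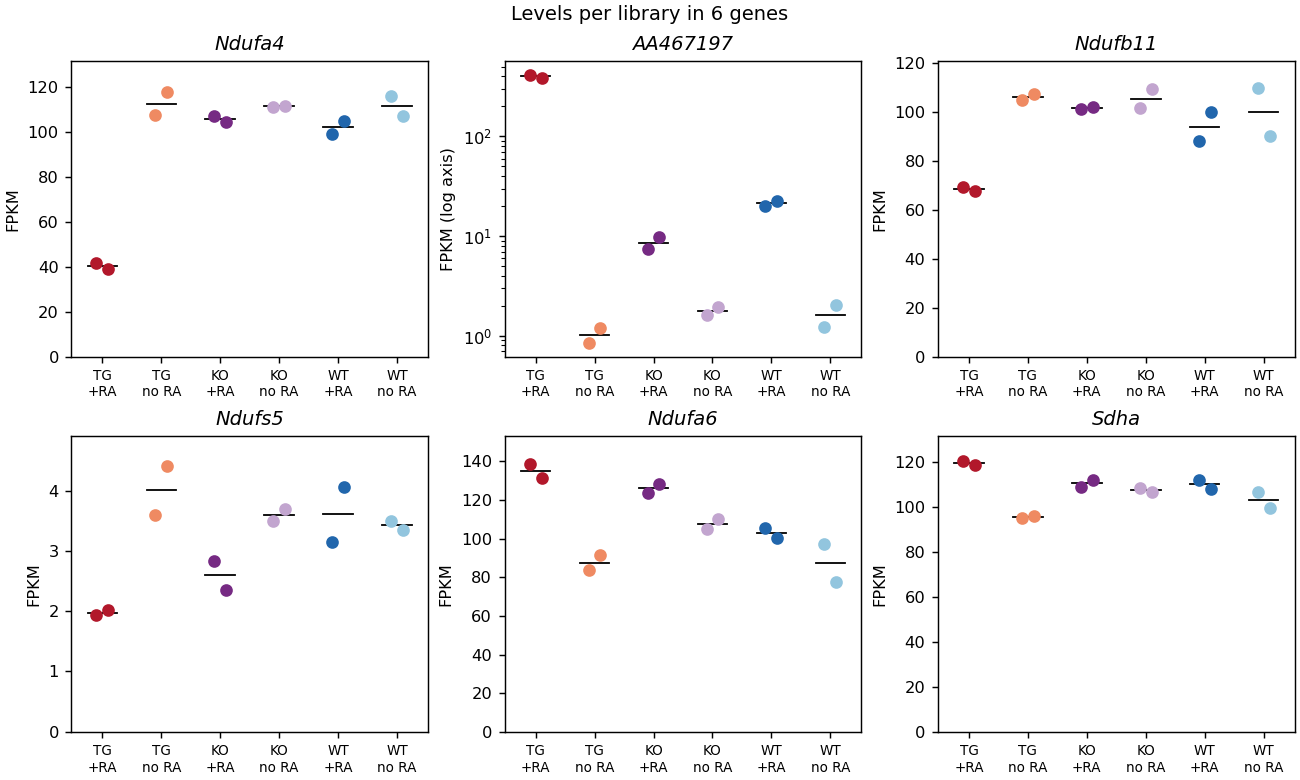
FPKM of Ndufa4, AA467197 (log axis), Ndufb11, Ndufs5, Ndufa6 and Sdha in each library (points) with group means (lines), from TG with RA at the left to WT without RA at the right. Ndufa4 is lowest in TG with RA, at 41.9 and 38.9 FPKM, where AA467197 is highest, at 417 and 386 FPKM.

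The Mir147 hairpin, on the plus strand of chromosome 2 within AA467197, and the 3′ UTR of Ndufa4 share complementary letters, and both are shown because these 2 RNAs moved against each other. Capitals mark, in the hairpin, each stretch of 8 bases whose complement lies in the Ndufa4 3′ UTR, and, in the UTR, those complements at positions 52 to 59 and 62 to 69 of the UTR. In miR-147-5p the capitals mark the seed, bases 2 to 8, and not a match. The UTR site shown does not hold the complement of the whole seed. The hairpin stretch at bases 10 to 17 begins before miR-147-5p does and covers only part of its seed. The stretch at bases 49 to 56 lies on the other arm, whose mature form had no entry in the sources used here.
Mir147 hairpin (RefSeq, GRCm38.p6, chr2:122640803-122640881): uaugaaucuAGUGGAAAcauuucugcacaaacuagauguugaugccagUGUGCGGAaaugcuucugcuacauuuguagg
miR-147-5p (RefSeq, GRCm38.p6): uGGAAACAuuucugcacaaacuag
Ndufa4 3′ UTR site (GENCODE M21, GRCm38, chromosome 6): aagccaTCCGCACAatTTTCCACTtaagca
The letters TCCGCACA occur in the 3′ UTR of 108 of 21015 genes (0.514%), among which Ndufa4 was the sole member of the 84. Of those 108 genes, 67 were tested, and in TG with RA against TG without RA 13 rose and 17 fell, with a median difference of -0.07 (log2). Over the 10138 tested genes with an annotated 3′ UTR, 2208 rose and 2164 fell, with a median of -0.02. TTTCCACT was found in 1061 genes (5.05%), Ndufa4 and Cox7a2l among the members, and 129 of 523 tested rose and 115 fell, with a median of 0.01. A match of letters is a description and not a binding site. The row of Mir147 was listed at 0 in all libraries, and mature microRNA was not measured.

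Ndufb11, an X-linked accessory subunit of the membrane arm, was at 69.2 and 67.7 FPKM in TG libraries with RA, against 105 and 107 FPKM in TG libraries without RA. The other 8 libraries held 88.2 to 110 FPKM, so that both TG libraries with RA were the lowest. The RA effect was -0.62 ± 0.09 in TG (limma adjusted p = 0.00093), -0.05 ± 0.09 in KO and -0.08 ± 0.09 in WT. Of the TG libraries replicate 1 carried Ddx3y and replicate 2 Xist, and the fall was seen in both. Ndufb11 shares 117 bases with Rbm10 on the opposite strand, and whether the counting used strand is not given in the sources used here.

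Ndufs5, a small accessory subunit on the outer side of the membrane arm, had a low level of 1.94 and 2.01 FPKM in TG libraries with RA, against 3.59 and 4.42 FPKM in TG libraries without RA. Libraries labelled KO held 2.83 and 2.35 FPKM with RA, against 3.49 and 3.70 FPKM without, and WT libraries 3.15 and 4.07 FPKM with RA, against 3.50 and 3.35 FPKM without. The RA effect was -0.75 ± 0.12 in TG (limma adjusted p = 0.0014), -0.36 ± 0.12 in KO (adjusted p = 0.34) and 0.05 ± 0.12 in WT (adjusted p = 0.84). BC002163, a near-identical copy of Ndufs5 on chromosome 16, stood at 34.7 to 48.6 FPKM and differed by -0.18 ± 0.16 with RA in TG (limma adjusted p = 0.41), and reads that match both could not be assigned. Ndufa9, which sits where the matrix arm meets the membrane, had 46.1 and 43.6 FPKM in TG with RA and 53.9 and 59.1 FPKM in TG without RA, a difference of -0.33 ± 0.06 (adjusted p = 0.003). An antisense gene, 1700018A23Rik, overlaps it.

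A further 7 complex I genes fell in TG with RA. They were the X-linked Ndufa1 (-0.51 ± 0.13), Ndufb6 (-0.38 ± 0.09), Ndufb5 (-0.27 ± 0.07), Ndufb7 (-0.19 ± 0.06) and Ndufa10 (-0.18 ± 0.05), all of the membrane arm, and Ndufv1 (-0.31 ± 0.08), which binds NADH and flavin, and Ndufs6 (-0.22 ± 0.07), both of the matrix arm. All 7 missed the threshold without replicate 2 of TG without RA, with differences of -0.35 to -0.12, and 6 of them, all but Ndufb6, without replicate 2 of TG with RA, at -0.41 to -0.14. Without replicate 1 of TG with RA, Ndufa10, Ndufs6 and Ndufb5 missed it as well, at -0.29 to -0.18.

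Against this direction Ndufa6, an accessory subunit of the matrix arm, was at 139 and 131 FPKM in TG libraries with RA, against 83.6 and 91.7 FPKM in TG libraries without RA. It was at 124 and 128 FPKM in libraries labelled KO with RA, against 105 and 110 FPKM without, and at 105 and 100 FPKM in WT libraries with RA, against 97.5 and 77.4 FPKM without. In each genotype both libraries with RA lay above both without. The RA effect was 0.62 ± 0.10 in TG (limma adjusted p = 0.0014), and did not pass in KO (0.23 ± 0.10, adjusted p = 0.46) or WT (0.24 ± 0.10, adjusted p = 0.17). Its effect in TG differed from that in WT by 0.38 ± 0.14 (adjusted p = 0.15), so a larger effect in TG was not shown. Ndufa8, a subunit of the intermembrane space, and Ndufs8, a core iron-sulfur subunit, rose by 0.19 ± 0.06 and 0.17 ± 0.06 in TG with RA. Each missed the threshold without replicate 1 of TG without RA, at 0.15 for Ndufa8 and 0.12 for Ndufs8, and without either TG library with RA, at 0.17 to 0.22. Ndufa8 missed it also without replicate 2 of TG without RA, at 0.23, and neither was called with equal medians, at 0.13 for Ndufa8 and 0.11 for Ndufs8. Ndufa8 also lay higher with RA in libraries labelled KO, at 88.5 and 86.9 FPKM, against 79.1 and 84.2 FPKM without. In WT libraries it was at 80.4 and 89.4 FPKM with RA, against 74.6 and 72.1 FPKM without. It was called in neither KO nor WT. For Ndufs8 the WT libraries with and without RA overlapped.

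All 4 complex II genes were called in TG. Sdha, the flavoprotein that oxidises succinate, was at 120 and 118 FPKM in TG libraries with RA, against 95.0 and 95.7 FPKM in TG libraries without RA. The libraries labelled KO held 109 and 112 FPKM with RA, against 108 and 106 FPKM without, and WT libraries 112 and 108 FPKM with RA, against 106 and 99.2 FPKM without. The TG libraries thus lay at both ends, those with RA highest of the 12 and those without RA lowest. The RA effect on Sdha was 0.32 ± 0.05 in TG (limma adjusted p = 0.0008), 0.04 ± 0.05 in KO and 0.10 ± 0.05 in WT (adjusted p = 0.81 and 0.23). A pseudogene, Gm16125, lies opposite 339 bases of Sdha.

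The other complex II genes went the other way. Sdhd had 125 and 123 FPKM in TG libraries with RA, against 139 and 153 FPKM in TG libraries without RA. Sdhc had 29.9 and 27.3 FPKM in TG libraries with RA, against 32.9 and 33.2 FPKM in TG libraries without RA. Sdhb, the iron-sulfur subunit, had 57.9 and 53.4 FPKM in TG libraries with RA, against 61.8 and 64.1 FPKM in TG libraries without RA. The 3 differences were -0.23 ± 0.06, -0.20 ± 0.06 and -0.18 ± 0.05 (limma adjusted p = 0.015, 0.02 and 0.02). None of these 3 falls passed without replicate 2 of TG without RA, at -0.20 to -0.15, or without replicate 2 of TG with RA, at -0.22 to -0.12. Sdhc missed the threshold also without replicate 1 of TG without RA, at -0.21, and Sdhd without replicate 1 of TG with RA, at -0.24.

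Complex III had 3 falls (37.5%) and 1 rise (12.5%) among 8 genes in TG, beside 19.4% and 19.7% of all genes. Uqcr11, a small subunit, was at 39.9 and 39.3 FPKM in TG with RA, against 49.2 and 52.0 FPKM in TG without RA, and at 44.4 to 50.8 FPKM in the 8 other libraries. Both TG libraries with RA were the lowest of the 12, and the difference was -0.35 ± 0.06 (limma adjusted p = 0.0026). Uqcr10 fell (-0.34 ± 0.09) and Uqcrfs1, the Rieske iron-sulfur protein, also fell (-0.18 ± 0.06), whereas Uqcrc2 rose by 0.22 ± 0.07. These 3 calls each ended without replicate 2 of TG without RA, at -0.26, -0.12 and 0.25, without replicate 2 of TG with RA, at -0.32, -0.17 and 0.26, and without replicate 1 of TG with RA, at -0.35, -0.19 and 0.19. Uqcrc2 also missed it without replicate 1 of TG without RA, at 0.19, and with equal medians, at 0.16.

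Complex IV had the fewest calls, 1 fall (7.69%) and 1 rise (7.69%) among 13 genes in TG, beside 19.4% and 19.7% of all genes. Cox7a2l, a Cox7a relative known for joining complexes III and IV into supercomplexes, was at 70.1 and 67.2 FPKM in TG with RA, against 56.5 and 54.4 FPKM in TG without RA. It was at 67.5 and 67.9 FPKM in libraries labelled KO with RA, against 62.7 and 57.3 FPKM without, and at 76.8 and 68.8 FPKM in WT with RA, against 63.6 and 54.3 FPKM without, so that RA libraries were above those without RA in each genotype. The RA effect was 0.30 ± 0.08 in TG (limma adjusted p = 0.019), 0.17 ± 0.08 in KO (adjusted p = 0.5) and 0.30 ± 0.08 in WT (adjusted p = 0.055, or 0.014 with paired libraries). The call in TG ended without either TG library with RA, at 0.27 and 0.34, and without replicate 2 of TG without RA, at 0.28. Cox7a1 fell (-0.61 ± 0.19) in TG (adjusted p = 0.033), at 1.56 and 1.03 FPKM in TG with RA and 2.56 and 2.42 FPKM in TG without RA, and missed the threshold without either library of TG without RA, at -0.58 and -0.64, or without replicate 2 of TG with RA, at -0.45. Cox8a and Cox6a1 had the widest range over the libraries among the abundant genes of the complex: Cox8a was at 125 and 223 FPKM in libraries labelled KO with RA and at 192 and 117 FPKM in WT libraries with RA. Cox6a1 was at 145 and 187 FPKM in libraries labelled KO with RA and at 136 and 122 FPKM in WT libraries with RA.

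In complex V, 4 genes fell and 1 rose among 16 in TG. Atp5k, subunit e of the membrane part, was at 54.2 and 47.1 FPKM in TG with RA, against 66.7 and 76.2 FPKM in TG without RA, a difference of -0.49 ± 0.10 (limma adjusted p = 0.0053). Atp5o, the subunit that joins the peripheral stalk to the catalytic head, was at 48.9 and 43.4 FPKM in TG with RA, against 57.6 and 61.5 FPKM in TG without RA, a difference of -0.36 ± 0.07 (adjusted p = 0.0032). Atp5g3, the most abundant gene for the c-ring, was at 110 and 111 FPKM in TG with RA, against 128 and 138 FPKM in TG without RA, a difference of -0.26 ± 0.05 (adjusted p = 0.0023). For Atp5k, Atp5o and Atp5g3 the TG libraries with RA were the lowest of the 12. Atp5k was also lower with RA in libraries labelled KO, at 59.6 and 57.4 FPKM against 67.9 and 79.7 FPKM, while its WT libraries overlapped. For Atp5g3 and Atp5b both libraries with RA lay below both without in KO and in WT, and for Atp5o they overlapped. Antisense genes D430001F17Rik and Gm15976 overlap Atp5o. Atp5b fell (-0.17 ± 0.05), and this call ended without replicate 2 of TG without RA, at -0.13, and without either TG library with RA, at -0.20 and -0.14. Atp5h, subunit d of the peripheral stalk, rose by 0.21 ± 0.05 (adjusted p = 0.0086), with 52.1 and 52.7 FPKM in TG with RA and 43.6 and 47.0 FPKM in TG without RA. In a fit of the 4 TG libraries alone its adjusted p was 0.062. Atp5h was also higher with RA in libraries labelled KO, at 53.0 and 55.3 FPKM against 48.2 and 49.6 FPKM. In WT libraries it was at 50.4 and 49.7 FPKM with RA, against 47.5 and 48.2 FPKM without. No complex V gene was called in KO or WT.

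In WT cells RA changed 1 of the 77 genes, and in cells labelled KO none. Over all genes tested, 6.67% rose and 3.47% fell in WT, and 0.143% were called in either direction in KO, which became 0.503% up and 0.126% down with paired libraries. The gene called in WT was Ndufs7, a core iron-sulfur subunit of complex I, at 27.4 and 32.2 FPKM in WT with RA, against 24.3 and 23.0 FPKM in WT without RA (0.32 ± 0.08, limma adjusted p = 0.047). The call ended without replicate 1 of WT without RA, at 0.36, without replicate 2 of WT without RA, at 0.28, and without replicate 2 of WT with RA, at 0.20, and its adjusted p was 0.065 with paired libraries. Unadjusted p-values under 0.05 numbered 10 in WT and 6 in KO, and limma voom on recovered reads called 0 in each. The smallest p in KO was that of Ndufa3, a small accessory subunit of complex I (-0.25 ± 0.06, adjusted p = 0.21). Median differences over the set were -0.01 in WT and -0.02 in KO, beside 0.02 and 0.01 over all genes tested. With equal medians the 795 rises and 414 falls of all genes in WT became 565 and 711, and with upper-quartile scaling 667 and 554, and Ndufs7 was not called under either.

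The RA effect itself differed between TG and WT for 4 genes, all with a more negative effect in TG: Ndufa4 (-1.33 ± 0.09), Ndufs5 (-0.80 ± 0.17), Ndufb11 (-0.54 ± 0.13) and Uqcr11 (-0.37 ± 0.09; limma adjusted p = 0.00012, 0.025, 0.042 and 0.038). Among all genes 2.73% had a more negative and 4.75% a more positive effect in TG. With paired libraries these shares were 4.37% and 6.69%, and 2 of the 4 genes passed, Ndufb11 and Uqcr11 missing the threshold (adjusted p = 0.076 and 0.07). Ndufa4 was the one gene of the 4 to pass whichever of the 8 TG and WT libraries was left out. Without replicate 2 of TG without RA the differences of Ndufs5, Ndufb11 and Uqcr11 ran between -0.68 and -0.33, and without replicate 2 of WT with RA between -0.65 and -0.34, and none of the 3 passed. The same held without either TG library with RA, with -0.82 to -0.36, and without replicate 2 of WT without RA, with -0.77 to -0.33. Uqcr11 missed the threshold without each of the 8 libraries, and Ndufb11 also without replicate 1 of TG without RA, at -0.56, and Ndufs5 also without replicate 1 of WT without RA, at -0.82. Between KO and WT the RA effect differed for 0 of the 77 genes by limma and by limma voom, with 3 unadjusted p-values under 0.05, and 0.00839% of all genes were called.

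With RA, TG cells had lower levels than WT cells of 5 members and a higher level of 1, beside 4.64% lower and 6.84% higher of all genes. The 5 were Ndufa4 (-1.31 ± 0.06), Ndufs5 (-0.62 ± 0.12), Ndufb11 (-0.45 ± 0.09), Ndufa9 (-0.28 ± 0.06) and Uqcr11 (-0.23 ± 0.06), and the 1 was Ndufa6 (0.39 ± 0.10; limma adjusted p = 9e-06, 0.012, 0.016, 0.018, 0.046 and 0.037). All but Ndufa4 missed the threshold without either TG library with RA or without replicate 2 of WT with RA, with falls of -0.64 to -0.20 and the rise at 0.35 to 0.43. Without replicate 1 of WT with RA, Ndufa6 and Uqcr11 missed it, at 0.43 and -0.27.

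Without RA, TG cells differed from WT cells in 0 of the 77 genes by limma and by limma voom, with 9 unadjusted p-values under 0.05 and 4.31% of all genes called. Cells labelled KO differed from WT cells in 0 members with RA, with 12 unadjusted p-values under 0.05 and 0.881% of all genes called. Without RA they also differed in 0, with 13 unadjusted p-values under 0.05 and 1.74% of all genes called, and limma voom called 0 in both. Of the 77 differences between KO and WT, 56 were above 0 with RA and 62 without RA, with medians of 0.06 and 0.07 (log2) beside 0.00 and 0.01 over all genes. With a library left out, the medians of the set ran between 0.01 and 0.09 with RA and between 0.03 and 0.11 without RA. With equal medians the median of the set without RA was 0.03, beside -0.02 over all genes. With a library left out, the lowest medians of the set came without replicate 1 of WT with RA and without replicate 2 of WT without RA. The 3 X-linked members are Ndufa1, Ndufb11 and Cox7b, and none was called between KO, whose libraries carried Xist, and WT.

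Genes that serve the complexes without being named as their subunits were counted in the same way in TG with RA against TG without RA. Of all genes tested, 19.4% fell and 19.7% rose there. These lists were not counted with a library left out. Among 26 tested genes of mitochondrial protein import, 12 fell and 0 rose, with Timm9, a small chaperone of the intermembrane space, at 8.33 and 8.24 FPKM in TG with RA, against 11.7 and 13.4 FPKM in TG without RA. Of 76 mitochondrial ribosomal proteins 26 fell and 2 rose, and one of the 2, Mrps6, was at 116 and 114 FPKM in TG with RA, against 65.8 and 65.5 FPKM in TG without RA. In the tricarboxylic acid cycle 7 of 19 genes fell and 0 rose, among them Suclg2, a subunit of the succinyl-CoA ligase that makes succinate (-0.29 ± 0.06, limma adjusted p = 0.0036). Assembly factors were split and near the shares of all genes, with 10 falls (20.4%) and 8 rises (16.3%) among 49. Sco1, which delivers copper to complex IV, fell (-0.63 ± 0.07), and Sdhaf1, which helps place iron-sulfur clusters in Sdhb, rose by 0.65 ± 0.10 (adjusted p = 0.00027 and 0.0012). Sdhaf1 was also called with RA in WT (0.54 ± 0.10, limma adjusted p = 0.014). In KO it differed by 0.46 ± 0.10 and did not pass (limma adjusted p = 0.14).

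Regulators of mitochondrial gene expression and biogenesis had 4 falls (20%) and 1 rise (5%) among 20 tested in TG, beside 19.4% and 19.7% of all genes. Polg, the mitochondrial DNA polymerase, was at 18.1 and 17.9 FPKM in TG with RA, against 24.7 and 24.9 FPKM in TG without RA. Among 9 electron transport genes outside the name rule, Higd1a fell (-0.47 ± 0.12), Cyc1, cytochrome c1 of complex III, fell (-0.20 ± 0.07), and Cox14 rose by 0.39 ± 0.13 (limma adjusted p = 0.012, 0.037 and 0.042). Of the 13 subunits encoded in mitochondrial DNA, 7 were tested and 0 called by limma, with 0 unadjusted p-values under 0.05. mt-Co1 was at 2174 and 1820 FPKM in TG with RA, against 1839 and 1278 FPKM in TG without RA. With paired libraries mt-Co1 and mt-Nd5, a core subunit of complex I, were higher with RA in TG (0.38 and 0.41, adjusted p = 0.028 and 0.038). The other 6, among them mt-Co2 and mt-Atp6, were listed at 0 in at least 11 of the 12 libraries, which is no measure of absence. In WT with RA against WT without RA the counts of rises and falls were 3 and 1 for assembly factors, 0 and 1 for the cycle, import and ribosomal lists, and 0 for the others, and in KO all were 0. Of all genes tested, 6.67% rose and 3.47% fell in WT, and 0.143% were called in KO. With paired libraries the falls in WT became 2 for assembly factors and for ribosomal proteins, with 1 ribosomal rise, and 1 assembly factor, Sdhaf1, rose in KO.

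**Figure D5:**
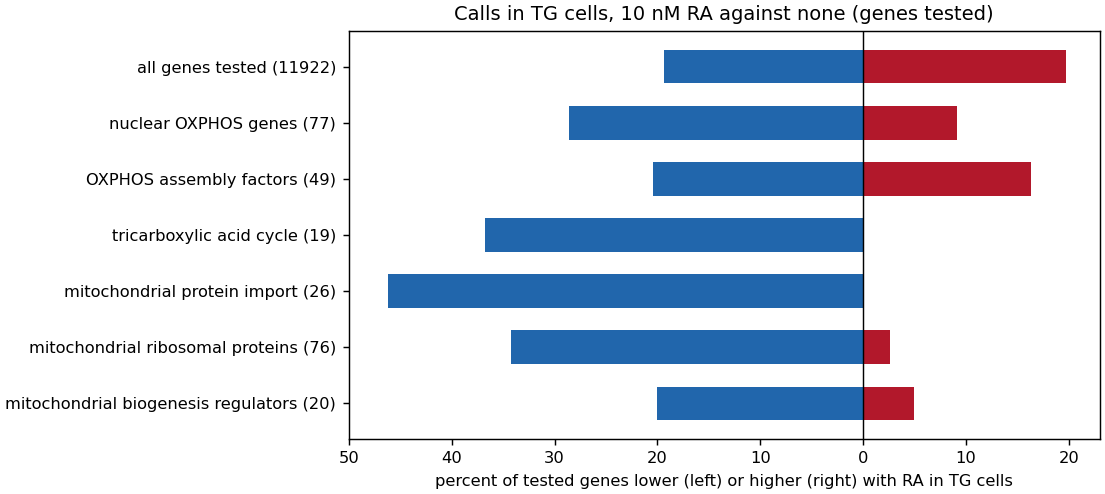
Percent of the tested genes of each list that fell (left, blue) or rose (right, red) with RA in TG cells, with the number tested in brackets. All genes stand at 19.4% and 19.7%, the nuclear OXPHOS genes at 28.6% and 9.09%, and protein import has falls only.

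The sequence upstream of the genes was described in 66 of the 84 members with a RefSeq entry (GRCm38.p6), over 250 bases before the RefSeq gene start and on both strands. The gene positions given above are from GENCODE M21, where some genes start farther upstream. The stretches of Ndufa4, Ndufa6 and Sdha thus reach into the genes as placed there, and so does the TGCGCA nearest to Sdha. TGCGCA, the core letters known for the factor NRF1, which drives many respiratory genes, were in 13 of 66 (19.7%), beside 13.1% of 8300 tested genes. CCGGAAG, known for ETS factors such as GABP, was in 16.7% and 15.7%, and AAGATGGC, known for YY1, in 0% and 2.3%. The single repeats known for retinoic acid receptors were in 16.7% of members and 10.2% of tested genes for AGGTCA and in 7.6% and 8.3% for AGTTCA. Among the 21 members with an entry that fell in TG with RA, 3 held AGGTCA, and among the 6 that rose, 1 did. The upstream sequences of Ndufa4, the largest fall, and of Ndufa6 and Sdha, the rises that passed under every alternative, are shown with matches in capitals, read towards the gene.
Ndufa4 (GRCm38.p6, chr6:11907451-11907700, minus strand, TGAACT the complement of AGTTCA): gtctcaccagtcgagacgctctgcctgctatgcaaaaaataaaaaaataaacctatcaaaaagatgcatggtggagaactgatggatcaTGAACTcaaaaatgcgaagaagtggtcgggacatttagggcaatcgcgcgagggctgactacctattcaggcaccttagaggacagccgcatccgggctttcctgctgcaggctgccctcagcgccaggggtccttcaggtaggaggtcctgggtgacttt
Ndufa6 (GRCm38.p6, chr15:82354292-82354541, minus strand, TGCGCA): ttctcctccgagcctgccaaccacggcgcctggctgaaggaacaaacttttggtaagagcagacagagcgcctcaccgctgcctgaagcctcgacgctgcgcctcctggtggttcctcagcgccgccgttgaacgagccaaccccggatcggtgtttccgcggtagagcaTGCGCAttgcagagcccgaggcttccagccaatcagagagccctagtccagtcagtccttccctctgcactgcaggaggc
Sdha (GRCm38.p6, chr13:74350241-74350490, minus strand, TGCGCA): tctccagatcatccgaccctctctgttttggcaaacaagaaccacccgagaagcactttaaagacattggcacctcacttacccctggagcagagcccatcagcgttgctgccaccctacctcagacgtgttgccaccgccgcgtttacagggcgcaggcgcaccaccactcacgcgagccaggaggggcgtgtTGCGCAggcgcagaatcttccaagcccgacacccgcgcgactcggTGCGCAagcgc
A match is a description of letters, and binding was not measured.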

How the data were processed

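RNA-seq values of 12 libraries were deposited by the authors as FPKM per gene in one table. Per the submitters' processing notes, Trimmomatic 0.32, STAR, HTSeq 0.6.1 and DESeq2 were used with GRCm38.p5 and mm10, and the step each served is not given in the sources used here. Per the labels' protocols, libraries were stranded and read as single reads of 100 bases. GENCODE M21 (GRCm38) gave exon lengths and positions, in which 52488 of 52635 identifiers have an entry. From these FPKM, log2(FPKM + 1) was analysed by limma 3.58.1 under R 4.3.3 (1 mean for each of 6 groups, eBayes with a trend) for the 11922 genes with at least 1 FPKM in at least 2 libraries. There were 6 residual and 2.51 prior degrees of freedom. P-values are two-sided, adjusted by Benjamini-Hochberg within each of 9 comparisons and genes with an adjusted p under 0.05 are called and said to have risen or fallen. Fold changes understate low genes. FPKM times exon length fell within 0.02 of whole reads for 95.3 to 95.9% of values up to 20 reads, which gave the depth; depth limits counting error only. The members and gene lists were chosen with earlier results of these data known, so nothing here is independent of them.

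Genes named were, per complex, the 3 with the smallest p in each RA comparison and in TG against WT with RA, the 2 most abundant, all Sdh genes, called genes against their complex's direction, isoforms, X-linked genes, Rara and up to 3 genes per list; 1 gene that this rule names is not reported here. All other called members, AA467197, Mir147, the marker genes and near-identical copies were named after their values were seen. Alternatives were a pseudocount of 0.1, no filter, upper-quartile scaling, equal medians, a fit of only the libraries compared, a replicate block over all groups, the replicate number as a block within each genotype for the RA comparisons (3 residual degrees of freedom, added after seeing the data), each library left out, and limma voom on recovered reads (11910 genes). Same-numbered libraries with and without RA deviated together from their group means over all genes tested, at correlations of 0.327 in WT, 0.32 in KO and 0.147 in TG. In TG the number also went with sex. Such libraries were taken as paired in the fits so named. Between genotypes the correlations reached 0.206, so the value in TG does not by itself show pairing. The labels give no shared mouse or day. The code was tested on simulated reads. Tables and figures used Python 3.11.15, pandas 2.3.3 and matplotlib 3.10.9.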

Additional observations from a re-analysis of the deposited data

Results flagged for a closer look

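Differences of the RA effect between TG and WT cells stood out for 4 members and for AA467197, by the test of the difference itself in limma. That of Ndufa4 was -1.33 (log2, TG minus WT), of Ndufs5 -0.80, of Ndufb11 -0.54 and of Uqcr11 -0.37. AA467197, chosen after its values were seen, differed by 4.54. Between cells labelled KO and WT 0 members passed this test, with 3 at an unadjusted p under 0.05.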

How the results depend on the processing

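In the 40 member calls reported, 353 of 490 re-tests passed the threshold again, 137 did not, and 0 changed direction. With RA in TG, 29 members were called: 17 in a fit of only the TG libraries and 12 to 31 with a library left out. With RA in WT, 1 was called: 0 with equal medians, upper-quartile scaling, no filter, only the WT libraries or voom, 2 with the replicate block and 0 to 2 with a library left out. The difference of the RA effect between TG and WT held 4 calls: 1 with no filter, 2 with only the libraries compared, 2 with voom, 2 with the replicate block within genotype and 1 to 5 with a library left out. TG against WT with RA held 6 calls: 1 in a fit of only those libraries, 8 (1 higher, 7 lower) with the replicate block over all groups and 1 to 6 with a library left out. KO against WT had 0 calls in both doses: 3 without RA with the replicate block, and 0 to 1 with RA when a library was left out. Where 1 library was left in a group, its spread was taken from the other groups. Beyond these, the cause was not tested.

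Between genotypes same-numbered libraries correlated at 0.004 to 0.206, a range that includes the 0.147 between TG with and without RA. These correlations therefore do not decide on pairing in TG or between genotypes. A replicate block over all groups gave 31 calls with RA in TG. The block within each genotype, chosen after seeing the data, gave 30 with RA in TG, 1 in WT (Cox7a2l in place of Ndufs7) and 0 in KO, and changed the calls named with the results. The summed FPKM moved by less than 1 SD under upper-quartile scaling, chosen after seeing the data. With 2 libraries per group, small differences could be missed.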

Other observations

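Gm6969, a processed pseudogene on chromosome 12 that shares 9.98% of the 100-base windows of Cox7a2l, split the libraries labelled KO. It was at 46.2 and 42.1 FPKM in replicate 1 of KO with and without RA, and at 7.72 and 5.84 FPKM in replicate 2 of KO with and without RA. The TG libraries held 2.67 to 4.35 FPKM and the WT libraries 3.77 to 5.00 FPKM. C57BL/6 mice are known to carry a shorter Cox7a2l allele than many other strains. Cox7a2l itself was at 67.5 and 62.7 FPKM in replicate 1 of KO with and without RA, against 67.9 and 57.3 FPKM in replicate 2. The source of the split was not tested.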
